A study of Mus musculus with 6 samples.

Results

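The genes described here make and break down hyaluronan, or bind it at the cell surface. They are Ugdh, the synthase genes Has1, Has2 and Has3, the hyaluronidase genes Hyal1 and Hyal2, and the receptor gene Cd44, 7 of the 54532 genes in the deposited count table. The set was chosen by the values of Has1, whose counts were far lower in the cells labelled PP than in those labelled PA/OA. That difference is therefore a description and carries no test. The other 6 were taken by function, with earlier results of these data known.

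Hyaluronan is a long unsulfated glycosaminoglycan, a chain in which glucuronate and N-acetylglucosamine alternate. The synthases build it at the plasma membrane from UDP-glucuronate, made by UGDH, and UDP-N-acetylglucosamine, and extrude it into the matrix. Hyaluronidases cut the chain into pieces that exoglycosidases digest in lysosomes, and CD44 holds hyaluronan at the cell surface and carries it into the cell. In the liver, stellate cells are known as a main source of hyaluronan and the sinusoidal endothelium as the site where it is cleared from blood, through the receptor STAB2.

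The cells were AML12, a mouse hepatocyte line kept in culture and labelled wild type, harvested after 24 h. One group of 3 libraries is labelled PA/OA, the modelling reagent of the study, which the submitters put at 400 nM and 800 nM. The other group of 3 is labelled PP, at 250 µg/ml. The labels do not spell out PP, and the sources used here do not say whether the PP cells also received PA/OA. Untreated cells were not analysed here, so a difference between the groups cannot be placed against normal culture. All libraries come from 1 line, and no label says whether their cultures were separate, so the p-values cover only the spread among these libraries, part of which may be technical.

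PP replicates 2 and 3 were the deepest libraries, with total counts of 32560589 and 31832239, and the other 4 held 24113169 to 27418502. Genes with at least 1 count numbered 22800 to 23329 in the PA/OA libraries and 19555 to 19779 in the PP libraries, although the latter were deeper. The TMM scaling factors lay between 1.15 and 1.17 in PA/OA and between 0.849 and 0.867 in PP, so the scaling differed by group. Of 15718 genes tested, 75% differed between the groups at a Benjamini-Hochberg adjusted p under 0.05 in the quasi-likelihood test of edgeR. In PP 35.1% were higher and 39.9% lower, so passing the test is common in these data. The hepatocyte label was checked against 17 markers, of which Apoa2 and Tat had no count in any library and albumin (Alb) stood at 12.2 CPM (counts scaled to library depth with TMM) in PA/OA and 9.90 in PP. The keratin genes Krt8 and Krt18, at 1775 and 975 CPM in PA/OA, were high, and so was the bile duct keratin gene Krt19, at 2011 CPM. Markers of stellate cells or fibroblasts summed to 5.69 to 7.04 CPM in PA/OA and 3.33 to 6.95 CPM in PP over 13 genes, with Lum at 0. Those of macrophages and other leukocytes summed to 1.40 to 1.56 CPM and 1.30 to 2.57 CPM over 13 genes, with Adgre1, Clec4f, Cd5l, Marco and Vsig4 at 0. Those of bile duct cells summed to 2429 to 2554 CPM and 4053 to 4496 CPM over 6 genes, with Epcam and Cftr at 0. Most of that sum was Krt19, at 2011 CPM in PA/OA and 3513 in PP. Krt7 held 352 and 441 CPM, Spp1 88.2 and 228, and Sox9 28.0 and 45.7. The part of such differences in the results was not tested.

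The mRNA of these genes moved in opposite directions. Of the 6 genes other than Has1, Ugdh and Hyal1 rose 3.06-fold and 4.56-fold in PP, Has3 fell 8.67-fold, Hyal2 and Cd44 were higher by 1.21-fold and 1.13-fold, and Has2 had no count at all. All 5 that could be tested passed the test (4 higher, 1 lower), against 75% of all genes. The small differences of Hyal2 and Cd44 depended on the scaling and were lost or turned under several settings. Has1 stood 47.1-fold lower in PP, a size that moved by more than 1.5 times when PP replicate 1 or PP replicate 3 was left out.

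**Figure D1:**
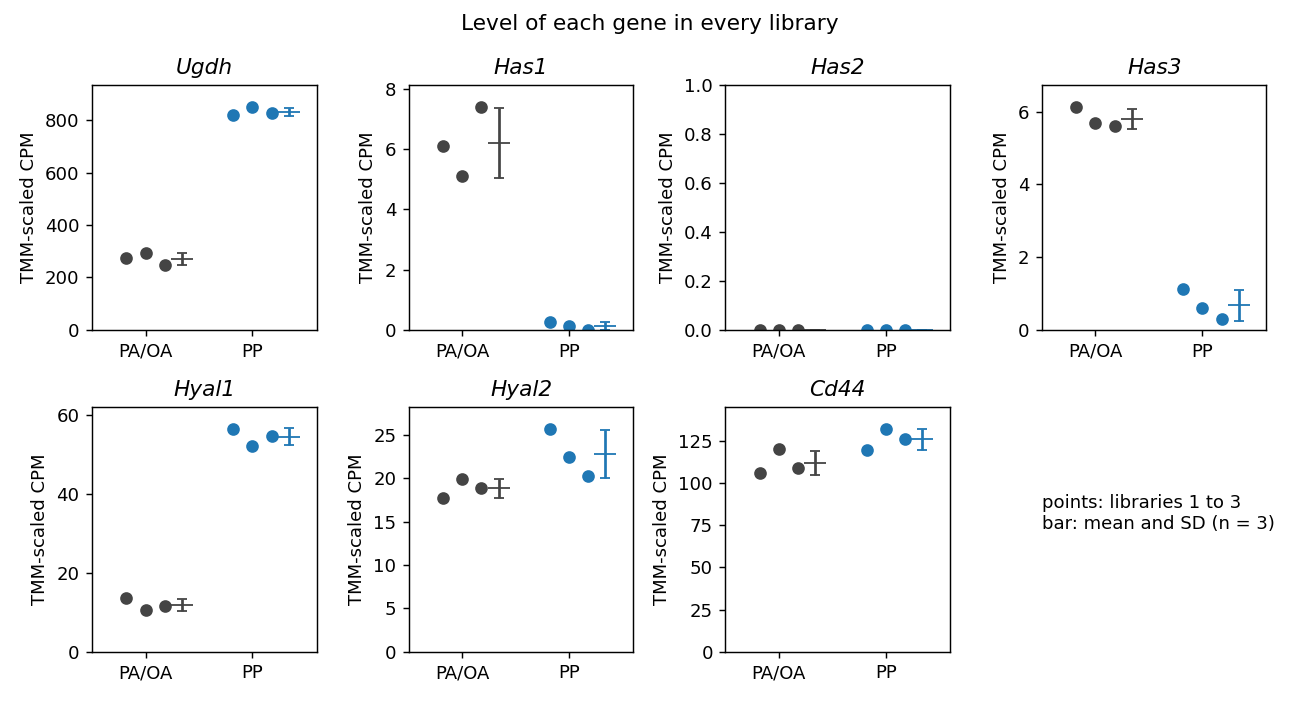
TMM-scaled CPM (y axes starting at 0) of each of the 7 genes in the 3 PA/OA libraries (dark) and the 3 PP libraries (blue), with the group mean and SD as a bar. The groups are far apart for Ugdh, Has1, Has3 and Hyal1, close for Hyal2, overlapping for Cd44, and at 0 throughout for Has2.

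Ugdh codes for UDP-glucose dehydrogenase, which oxidises UDP-glucose to UDP-glucuronate, the sugar donor for hyaluronan, for the sulfated glycosaminoglycans and for hepatic glucuronidation. It lies on the minus strand of chromosome 5, 65413221 to 65435949 (build mm10, as all positions here). The PA/OA libraries held 274, 294 and 248 CPM and the PP libraries 819, 850 and 828 CPM. The PP libraries were thus close together and all far above the PA/OA libraries. The log2 fold change was 1.61 ± 0.06 (SE, n = 3 in each group; adjusted p = 4.62e-16, edgeR). Per kilobase of transcript, Ugdh was the most abundant of the 7 genes in both groups, at 40.3 ± 3.38 RPKM in PA/OA and 123 ± 2.35 RPKM in PP (SD, n = 3). Highly expressed genes were mostly higher in PP: among 277 other genes within 0.5 of its average log2 CPM, the median log2 fold change was 0.68, and 27 stood at or above that of Ugdh. With each library's trend with abundance removed, the log2 fold change of Ugdh was 1.02.

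Of 13 tested genes that make or recycle UDP-glucose and UDP-N-acetylglucosamine, 8 rose, 3 fell and 2 (Hk2 and Amdhd2) were not past the test. The share called was 84.6%, beside 75% of all genes (35.1% higher, 39.9% lower). Their median log2 fold change was 1.20, beside -0.09 for all genes tested and 0.68 for the genes of Ugdh's abundance. The average log2 CPM of these precursor genes ran from 0.45 (Gnpnat1) to 10.3 (Gpi1), beside 9.11 for Ugdh. The value of 0.68 is therefore not matched to the abundance of the list. Ugp2, whose enzyme makes the UDP-glucose that UGDH consumes, rose by 1.72 ± 0.07, from 101 ± 12.2 to 333 ± 13.0 CPM (SD, n = 3). Because a ratio of 2 genes within a library is free of scaling between libraries, Ugdh was also set against Ugp2 per base. That ratio was 1.27, 1.16 and 1.24 in the PA/OA libraries and 1.17, 1.13 and 1.11 in the PP libraries. The ranges overlap, while Ugdh rose 3.06-fold and Ugp2 3.29-fold. Before that step, the hexokinase gene Hk1 rose by 2.01, while Hk2, another hexokinase gene, stood at -0.17 on the log2 scale (edgeR, adjusted p = 0.640). The glucose phosphate isomerase gene Gpi1 rose by 1.98 and the phosphoglucomutase gene Pgm2 by 1.89. Gfpt1, the first and rate-limiting enzyme of the hexosamine pathway to UDP-N-acetylglucosamine, rose by 2.35, from 219 ± 12.7 to 1113 ± 24.2 CPM. Gnpnat1, the glucosamine-phosphate acetyltransferase gene, fell by 2.05, from 2.04 ± 0.370 to 0.498 ± 0.299 CPM, and its log2 fold change was -2.60 without PP replicate 1. The mutase gene Pgm3 fell by 0.68 and the salvage kinase gene Nagk by 0.61. Uap1, whose enzyme makes the final UDP sugar, rose by 0.87, and the related gene Uap1l1 by 1.45. Amdhd2, a deacetylase gene of the same pathway, stood at 0.20 (edgeR, adjusted p = 0.0775). Hk2, Pgm3, Nagk, Uap1, Uap1l1 and Amdhd2 were named after their values were seen.

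Has1 codes for 1 of the synthases and lies on the minus strand of chromosome 17, 17843323 to 17855205. Its counts were 192, 153 and 207 in the PA/OA libraries and 6, 4 and 0 in the PP libraries. Scaled, these were 6.12, 5.09 and 7.40 CPM against 0.252, 0.145 and 0 CPM, where 3 counts, the limit that a count of 0 allows, correspond to 0.0942 CPM in PP replicate 3 (by its total count). In PA/OA every library held at least 153 counts, and in PP none held more than 6. The fitted log2 fold change was -5.56 ± 0.41 (SE, n = 3). It was -6.31 without PP replicate 1 and -4.94 without PP replicate 3. Genes of its abundance were lower in PP as a rule: among 1137 others within 0.5 of its average log2 CPM the median log2 fold change was -0.55. With the trend with abundance removed, the fold change of Has1 was -4.68.

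The bases before the Has1 start are shown because this is the gene the set was built around, with those before the Hyal1 start, the hyaluronidase gene that rose, for comparison. They come from RefSeq (GRCm38.p6), run 5′ to 3′ on the gene's strand, and stop where the gene model of the deposited table begins. The Has1 stretch is chr17:17855206-17855438 (minus strand) and the Hyal1 stretch chr9:107576700-107576926 (plus strand). Capitals mark matches, on either strand, to the cAMP response element TGACGTCA, the E-box CACGTG, the AP-1 site TGANTCA, the CCAAT box CCAAT, the GC box GGGCGG and the TATA box TATAAA.
Has1: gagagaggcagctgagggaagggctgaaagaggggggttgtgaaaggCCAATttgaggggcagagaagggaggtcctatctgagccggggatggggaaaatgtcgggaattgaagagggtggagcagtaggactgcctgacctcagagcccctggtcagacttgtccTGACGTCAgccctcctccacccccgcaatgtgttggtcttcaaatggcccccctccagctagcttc
Hyal1: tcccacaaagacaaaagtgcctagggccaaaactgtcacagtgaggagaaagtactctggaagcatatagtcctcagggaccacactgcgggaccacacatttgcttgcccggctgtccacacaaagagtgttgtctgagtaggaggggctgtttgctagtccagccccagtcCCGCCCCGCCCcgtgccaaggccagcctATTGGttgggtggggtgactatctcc
The Has1 stretch held 1 full cAMP response element, 83 to 76 bases before the RefSeq start, and 1 CCAAT box, 203 to 199 bases before it. A cAMP response element stood in 1.56% of 32536 windows of 250 bases before RefSeq starts, and a CCAAT box in 33.8%. The Hyal1 stretch held 2 GC boxes that overlap by 1 base and 1 CCAAT box on the opposite strand, and a GC box stood in 33.0% of all windows. The windows of Ugdh and Hyal2 held 2 and 1 GC boxes, and that of Cd44 held none of the motifs searched. All 250 bases of the Hyal2 window and the last 107 of the Ugdh window lay inside the gene models of the deposited table. These bases hold the Hyal2 box and the Ugdh box 72 to 67 bases before the RefSeq start. Windows were found for 5 of the 7 genes, not for Has2 and Has3. A match is a string of letters, and no binding was measured.

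Has3, on the plus strand of chromosome 8 (106870242 to 106884566), codes for a synthase reported to make shorter chains than the other synthases. The PA/OA libraries held 192, 171 and 157 counts, or 6.12, 5.69 and 5.61 CPM. The PP libraries held 27, 17 and 8 counts, or 1.14, 0.615 and 0.291 CPM. The PP libraries were all below the PA/OA libraries but differed several-fold among themselves. Has3 fell by 3.12 ± 0.31 on the log2 scale (SE, n = 3; adjusted p = 8.17e-09, edgeR), with values from -3.64 without PP replicate 1 to -2.72 without PP replicate 3. Among 1143 other genes within 0.5 of its average log2 CPM, whose median was -0.53, 71 stood at or below it, and with the trend with abundance removed its log2 fold change was -2.54. The order of the PP libraries was the same for Has1 and Has3, with replicate 1 highest and replicate 3 lowest. Has2, the synthase gene known to be needed for embryonic heart development, lies on chromosome 15 (56665627 to 56694539, minus strand) and had 0 of 168790751 counts over the 6 libraries, which allows up to 0.0178 CPM. Its antisense gene Has2os also had none.

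Set per kilobase and added, Has1 and Has3 gave 2.31, 2.02 and 2.52 RPKM in the PA/OA libraries and 0.234, 0.128 and 0.0456 RPKM in the PP libraries. Has1 made up 58.5%, 55.8% and 65.1% of that sum in PA/OA and 23.9%, 24.9% and 0% in PP. The ratio of Has1 to Has3 within a library was 1.41, 1.26 and 1.86 in PA/OA and 0.314, 0.332 and 0 in PP. Has1 was the more abundant synthase mRNA per base in every PA/OA library and the less abundant in every PP library. Has1 was picked for its fall, which favours a lower share and ratio in PP. These values are therefore a description without a test. The PP shares rest on 6 Has1 counts or fewer per library. Has1 and Has3 were thus lower and Ugdh higher in the same libraries.

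**Figure D2:**
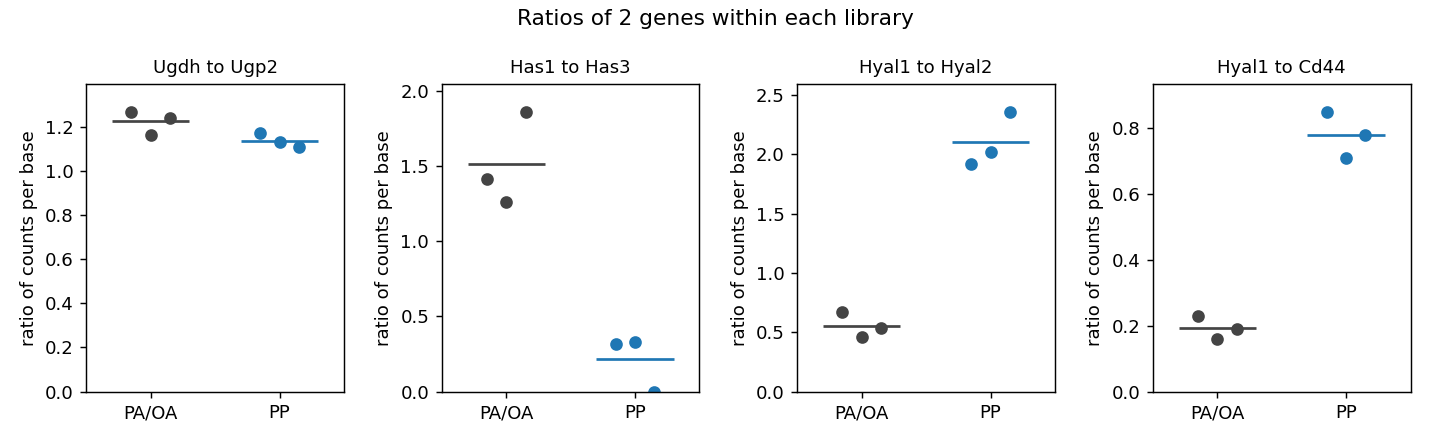
Ratios of counts per base of transcript between 2 genes of the same library (y axes starting at 0), for the 3 PA/OA and the 3 PP libraries, with the group mean as a line. Ugdh to Ugp2 stays between 1.11 and 1.27, and Hyal1 to Hyal2 and Hyal1 to Cd44 are higher in every PP library. Has1 to Has3 is lower in every PP library, where Has1 was picked for its fall.

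Hyal1 codes for the lysosomal hyaluronidase that cuts hyaluronan to small pieces, and lies on the plus strand of chromosome 9, 107576927 to 107581710. The PA/OA libraries held 13.6, 10.6 and 11.6 CPM and the PP libraries 56.6, 52.3 and 54.9 CPM. The groups were far apart, with little spread among the PP libraries. Hyal1 rose by 2.19 ± 0.09 on the log2 scale (SE, n = 3; adjusted p = 5.28e-15, edgeR), the change that 19 of 2210 other genes of its abundance reached or passed. The log2 fold change of Hyal1 lay between 1.75 and 2.30 in all 17 alternative fits. The annotation of the build (GENCODE M21, whose exon lengths equal those of the deposited table for all 7 genes) places 50.8% of the Hyal1 exon bases in exons of Nat6, on the same strand, and 4.21% in exons of Hyal3. The sources used here do not give how reads in such bases were counted. Nat6, an acetyltransferase gene, held 11.97 ± 0.755 CPM in PA/OA and 50.9 ± 1.71 in PP, and rose by 2.09, and Hyal3 rose by 2.19 from 0.372 ± 0.134 to 1.71 ± 0.260 CPM. Hyal3 held 33 counts in PA/OA and 134 in PP, beside 1071 and 4296 for Hyal1. The gene model Gm43552, which shares 158 exon bases with Ugdh on its strand, had 0 counts in both groups. Whether reads shared by Hyal1 and Nat6 were likewise not given to both was not tested. The rises of Hyal1 and Nat6 were therefore not told apart here, and the levels per length of the 3 genes are uncertain.

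Hyal2, 4148 bases upstream of Hyal1 on the same strand (107567945 to 107572779), codes for a hyaluronidase anchored to the cell surface, which cuts long chains to intermediate ones. The PA/OA libraries held 17.7, 19.9 and 18.9 CPM and the PP libraries 25.7, 22.5 and 20.3 CPM. The groups did not overlap, as for 77.4% of all genes tested, but the gap between them was smaller than the spread among the PP libraries. The log2 fold change was 0.27 ± 0.10 (SE, n = 3; adjusted p = 0.0222, edgeR). With library size only it was -0.16 (adjusted p = 0.169, edgeR), without PP replicate 1 it was 0.21 (adjusted p = 0.108, edgeR) and without PA/OA replicate 1 it was 0.23 (adjusted p = 0.0922, edgeR). The ratio of Hyal1 to Hyal2 per base within a library went from 0.669, 0.464 and 0.536 in PA/OA to 1.92, 2.02 and 2.36 in PP. Over full exon lengths, Hyal2 was thus the more abundant of the pair in every PA/OA library and Hyal1 in every PP library. Since 50.8% of the Hyal1 exon bases lie in exons of Nat6, the PA/OA order could differ if reads there were not counted for Hyal1. The order over its unshared bases was not tested. The gene beyond the cluster, Ifrd2, fell by 1.89, so neighbours on this stretch of chromosome 9 moved in both directions.

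Of 10 other breakdown genes in the table, 5 were expressed enough to test, with 3 higher and 1 lower, a share called of 80% beside 75% of all genes. Hexa, which codes for a lysosomal exoglycosidase subunit, rose by 1.13, from 29.4 ± 0.642 to 64.5 ± 0.191 CPM (SD, n = 3). Gusb, the β-glucuronidase that removes glucuronate from the chain ends, fell by 1.69, from 11.2 ± 0.628 to 3.47 ± 0.411 CPM. Tmem2, a cell-surface protein known to cut hyaluronan, held 53.9 ± 0.884 and 51.8 ± 8.01 CPM and did not pass (log2 fold change -0.06, adjusted p = 0.570, edgeR), though it was lower with library size only (-0.49), with upper-quartile scaling (-0.29) and with the trend with abundance removed (-0.28). Hyal3, also tested, was described with Hyal1. Cemip, another gene of hyaluronan depolymerisation, averaged 0.125 CPM or less and was not tested, and the sperm hyaluronidase gene Spam1 and Hyal5 had no counts. Tmem2, Cemip, Spam1 and Hyal5 were named after their values were seen.

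Cd44, on the minus strand of chromosome 2 (102811141 to 102901665), codes for the main cell-surface receptor of hyaluronan. The PA/OA libraries held 106, 120 and 109 CPM and the PP libraries 119, 132 and 126 CPM. The groups overlapped, since PA/OA replicate 2 was above PP replicate 1. The log2 fold change was 0.17 ± 0.06 (SE, n = 3; adjusted p = 0.0147, edgeR). With library size only Cd44 was lower (-0.26, adjusted p = 0.000417, edgeR), as it was with the trend with abundance removed (-0.21, adjusted p = 0.00424, edgeR), and without PA/OA replicate 1 it did not pass (0.14, adjusted p = 0.0898, edgeR). No direction held for it under all settings. Among 1546 other genes of its abundance the median log2 fold change was 0.40. Per kilobase it was the second most abundant of the 7 genes, at 16.5 ± 1.08 RPKM in PA/OA and 18.6 ± 0.943 RPKM in PP. The counts are per gene, so the splice variants of Cd44 could not be separated.

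In PA/OA the order of levels per kilobase was Ugdh (40.3 ± 3.38 RPKM), Cd44 (16.5 ± 1.08), Hyal2 (5.73 ± 0.342), Hyal1 (3.16 ± 0.398), Has1 (1.37 ± 0.255), Has3 (0.910 ± 0.0431) and Has2 at 0 (SD, n = 3). No neighbours in that order had ranges that met. In PP the order was Ugdh (123 ± 2.35), Cd44 (18.6 ± 0.943), Hyal1 (14.4 ± 0.572), Hyal2 (6.93 ± 0.831), Has3 (0.107 ± 0.0668), Has1 (0.0293 ± 0.0280) and Has2 at 0. The ranges of Has3 and Has1 met there. With the counts of protein-coding genes as the total, the order of the means was the same in both groups, but levels moved. Ugdh then averaged 49.2 RPKM in PA/OA and 110 in PP, and Hyal1 3.87 and 12.9. Cd44 averaged 20.2 and 16.5 and Hyal2 6.99 and 6.17, both lower in PP. Has1 and Has3 remained lower in PP. Has1, picked for its fall, and Has3 exchanged places between the groups, as did Hyal1 and Hyal2 over their full exon lengths. The level of Hyal1 is uncertain because of the exons it shares, and so is the order of Hyal1 and Hyal2 in PA/OA.

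**Figure D3:**
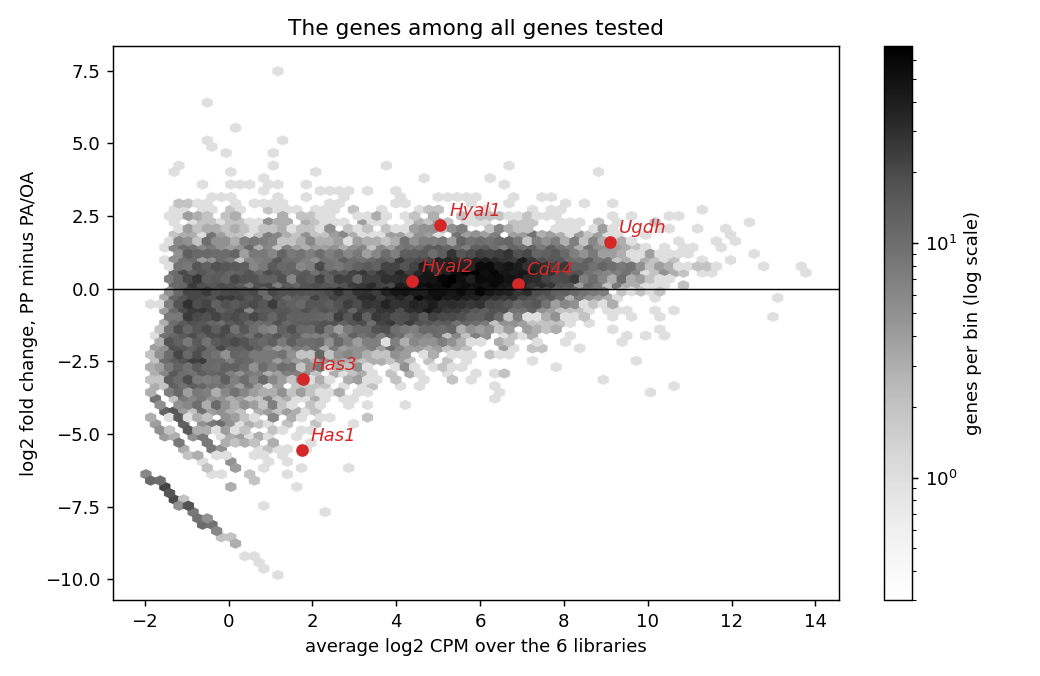
All genes tested by average log2 CPM over the 6 libraries (x axis) and log2 fold change, PP minus PA/OA (y axis), as bins shaded by the number of genes on a log scale, with the 6 tested genes of the set in red. Low genes are mostly lower and high genes mostly higher in PP. Hyal1 lies near the upper edge of the genes of its abundance, and Cd44 and Hyal2 lie in the body of the cloud.

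Around CD44, 9 of 12 genes of its partners and of the proteases that cut it were tested, and all 9 passed, beside 75% of all genes, 6 higher and 3 lower, with a median log2 fold change of 0.20. With library size only the split was 4 higher and 5 lower, and with the trend with abundance removed it was 3 higher and 4 lower. Spp1, the gene of osteopontin, a ligand of CD44, rose by 1.37, from 88.2 ± 6.61 to 228 ± 14.7 CPM (SD, n = 3). Adam10, a protease that sheds CD44, rose by 0.89, while Mmp14, another protease that cuts it, fell by 1.68, from 86.2 ± 9.40 to 26.8 ± 2.93 CPM. Of the proteins that link the CD44 tail to actin, radixin (Rdx) and ezrin (Ezr) rose by 0.77 and 0.73. The median for the genes of Ugdh's abundance, which is near theirs, was 0.68. Moesin (Msn), of the same family, stood at 0.19, and turned to -0.24 with library size only and -0.05 with upper-quartile scaling. Nf2, the gene of merlin, which competes with these proteins, fell by 1.63, from 163 ± 7.99 to 52.7 ± 2.28 CPM. The rise of Ezr was not past the test with the trend with abundance removed (0.08). Rdx, Ezr and Msn were named after their values were seen.

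Other receptors were few. Of 7, 4 were tested, with 1 higher and 2 lower, the share called being 75%, as over all genes. Hmmr, an intracellular and surface binding protein that also acts on the mitotic spindle, rose by 1.32, from 20.9 ± 2.24 to 52.2 ± 3.78 CPM (SD, n = 3). Stab1 fell by 1.77, from 11.3 ± 0.244 to 3.32 ± 0.595 CPM, and the toll-like receptor gene Tlr4 by 0.80. Stab2, the clearance receptor of the sinusoidal endothelium, held 0.701 ± 0.510 and 0.305 ± 0.147 CPM and did not pass (adjusted p = 0.0783, edgeR). In edgeR it passed as lower when scaled by library size alone (-1.61, adjusted p = 0.0185), with upper-quartile scaling (-1.41, adjusted p = 0.0363) and without PA/OA replicate 1 (-1.50, adjusted p = 0.0453), and stood at 0.36 with the trend with abundance removed. Lyve1 had 2 counts or fewer in any library. Other endothelial markers, Pecam1, Cdh5 and Kdr, were at 0.319 CPM or less in both groups, and Clec4g had no count. The endothelial list of 10 genes, Stab1 and Stab2 among them, summed to 14.3 to 15.5 CPM in PA/OA and 16.9 to 21.9 CPM in PP, where Oit3 rose by 2.53. Their part in the values of Stab1 and Stab2 was not tested.

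Of 18 genes of proteins that bind hyaluronan in matrix or plasma, 7 were tested, with 1 higher and 4 lower and a median log2 fold change of -0.64. The share called, 71.4%, was near that of all genes, 75%. Hapln4, a link protein gene, fell by 1.69, from 12.7 ± 0.935 to 3.92 ± 0.0469 CPM (SD, n = 3). Itih2, the gene of a heavy chain that is transferred to hyaluronan, fell by 0.66, from 56.1 ± 1.47 to 35.5 ± 3.04 CPM, and the versican gene Vcan by 0.67, which was not past the test with the trend with abundance removed. The aggrecan gene Acan rose by 1.24, from 1.30 ± 0.145 to 3.08 ± 0.483 CPM. Tnfaip6, whose product moves heavy chains onto hyaluronan, averaged 0.104 CPM or less.

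**Figure D4:**
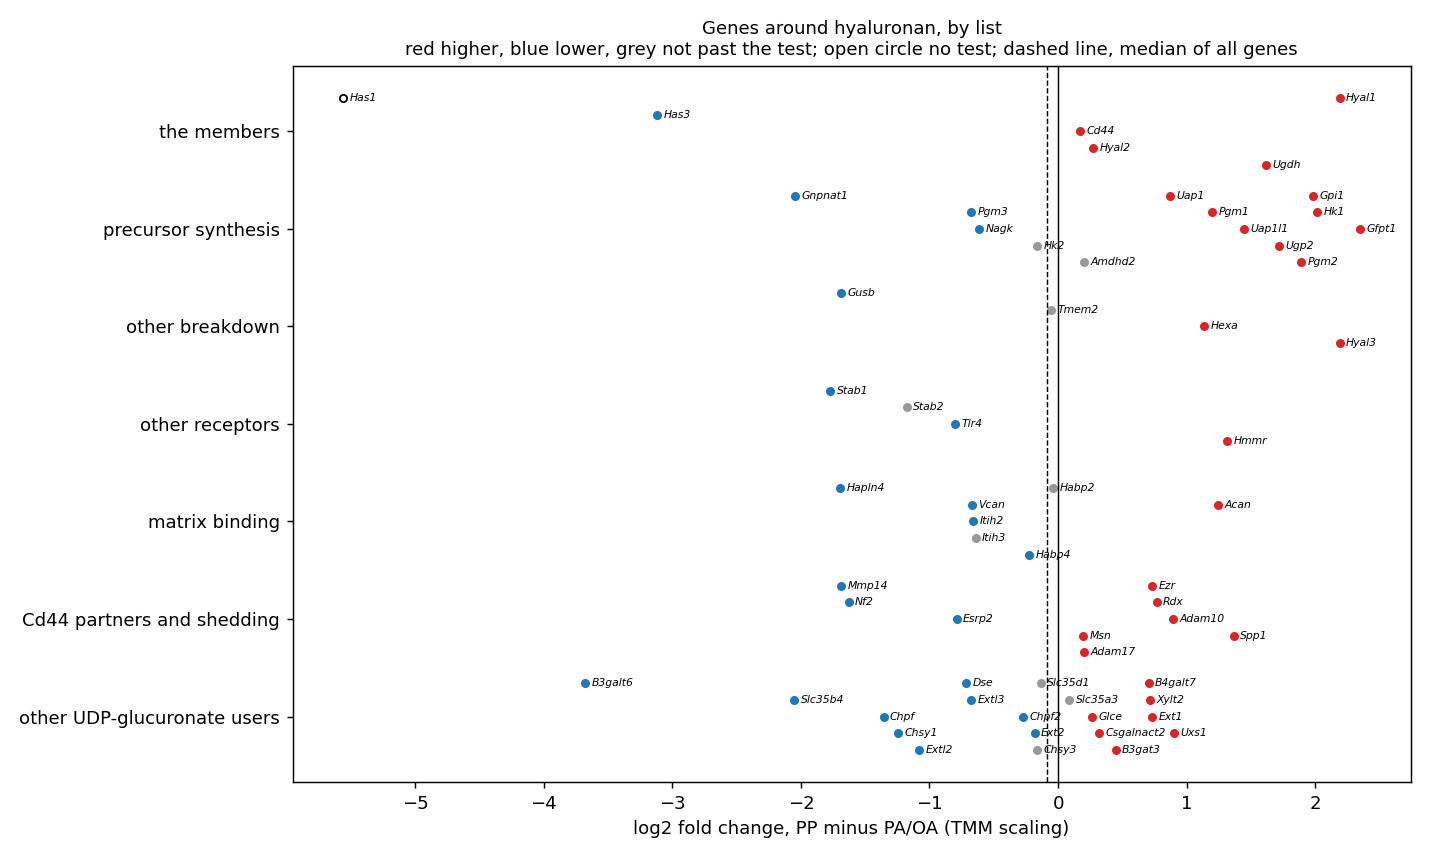
Log2 fold change, PP minus PA/OA (x axis), of the tested genes of the set (top row) and of genes of the 6 lists around hyaluronan, with red for higher, blue for lower and grey for not past the test, an open circle for Has1, which has no test, and a dashed line at the median of all genes (-0.09). The precursor genes lie mostly to the right, and the other lists hold genes on both sides.

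Along the chromosome, Spaca6, which ends 314 bases from Has1 on the opposite strand, fell by 1.88, from 56.4 ± 3.46 to 15.3 ± 0.745 CPM (SD, n = 3), with counts left in every PP library while Has1 had almost none. Chtf8 shares 5.52% of the Has3 exon bases on the opposite strand and fell by 0.75, and the genes on either side of Has3, Tango6 and Utp4, fell by 1.05 and 1.21. No use of strand is given, so Has3 counts could hold reads of Chtf8, and their part in the result was not tested. Beside Ugdh, Smim14 rose by 1.37, from 96.7 ± 5.88 to 249 ± 14.2 CPM. The unclassified gene models Gm43311, 194 bases from Ugdh, and Gm43289, which lies over it, both on its strand, fell by 2.53 and 1.75, with group means of 1.55 CPM or less.

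The pattern of Has1 over the 6 libraries was most like those of Ppp2r1b, Rpgr, Scfd2, Ulk4 and Lfng among 10308 protein-coding genes (Pearson's r of log2 CPM from 0.997 to 1.00). Their fold changes were smaller, from -0.71 for Ppp2r1b to -3.52 for Lfng. Likeness here mostly restates the difference between the groups, since 2473 genes reached an r over 0.9. The genes most like Cd44 were Spcs2, Ssr1, Pak1ip1, Gdpd1 and Cbwd1 (r from 0.983 to 0.992), with 206 genes over 0.9.

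**Figure D5:**
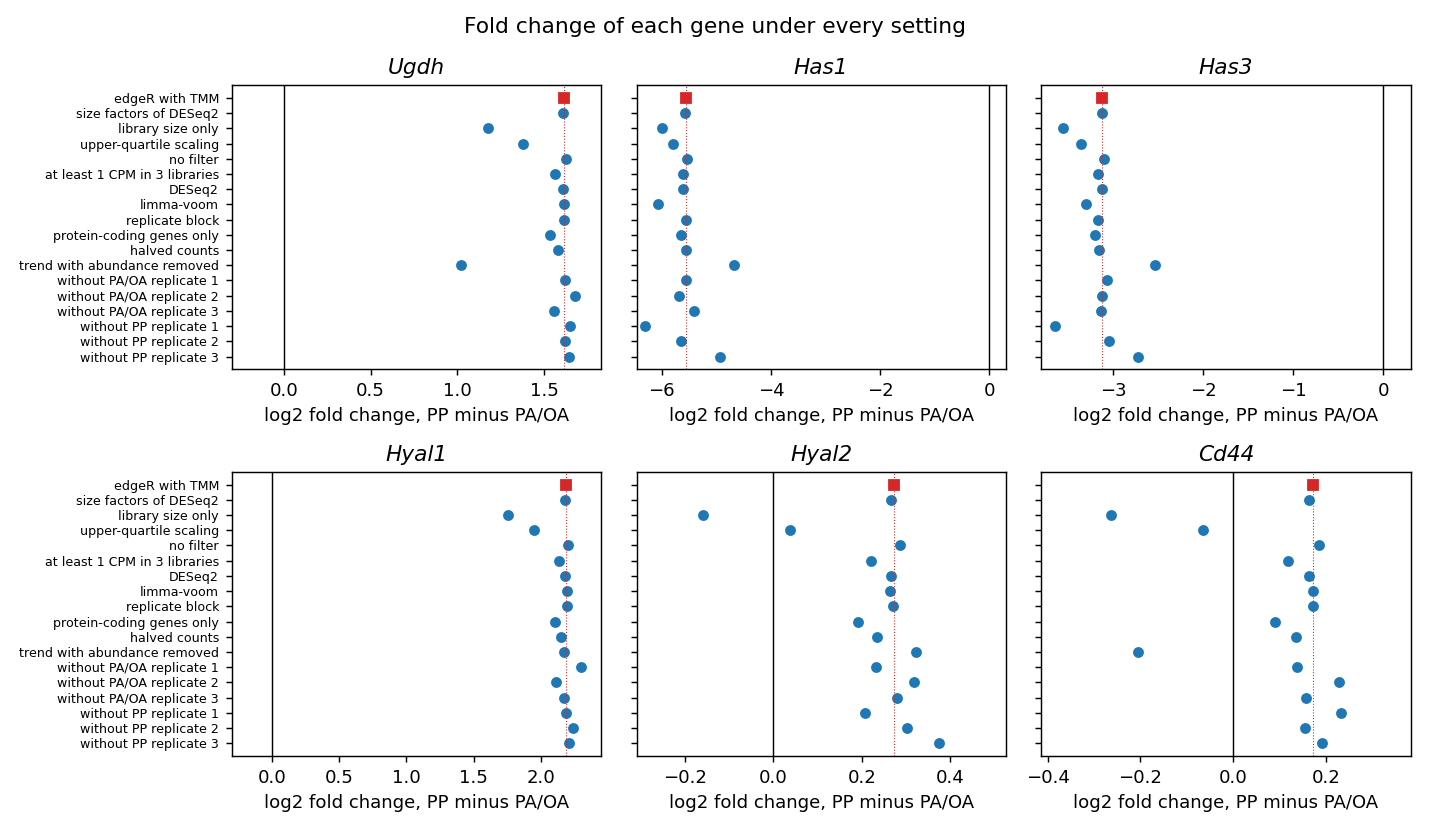
Log2 fold change, PP minus PA/OA (x axes), of the 6 tested genes under edgeR with TMM scaling (red square) and under each alternative (blue points, 1 per line), with a line at 0. Ugdh, Has1, Has3 and Hyal1 keep their side of 0 under all alternatives shown, Hyal2 crosses it with library size only, and Cd44 crosses it with library size only, upper-quartile scaling and the trend removed.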

How the data were processed

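Per the submitters' processing notes, raw counts per gene were made with featureCounts on build mm10, and DESeq2 1.16.1 is also named, without its role. No aligner, annotation or strand setting is named in the sources used here. The deposited counts were whole numbers, 1 column per library, and 57.1% to 61.5% of counts from 1 to 20 were even, so counting intervals may be too narrow. Gene length, in bases, is other information that the authors deposited in the same table, and RPKM were computed here from it and the TMM-scaled CPM.

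The treatment labels gave the groups, and the titles gave the replicate numbers. The analysis used edgeR 4.0.16 in R 4.3.3: filterByExpr, which left 15718 genes, TMM, glmQLFit and glmQLFTest, two-sided, with Benjamini-Hochberg adjustment over all genes tested and a threshold of 0.05. Fold changes on the log2 scale are PP minus PA/OA, and SE came from the F statistic. No 2 libraries of a group agreed within sampling noise (chi-square per gene of at least 3.16, halved counts). The fit was tested on simulated data.

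The members and lists were chosen with earlier results of these data known. Genes named were the members and, of each list, up to 4 genes with the largest change among those past the test at an average log2 CPM of 1 or more, any changed by over 1.5, and the neighbours of members. No list was tested as a set, and 1 gene that the rule names is not reported here. Genes of like abundance lay within 0.5 of a gene's average log2 CPM. Alternatives were other scalings, filters and tools (DESeq2 1.42.0, limma-voom 3.58.1), the replicate block, protein-coding genes only, halved counts, removal of the lowess trend with abundance in every library (span 0.4), omission of each library and, for levels per length, the protein-coding total as denominator.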

Additional observations from a re-analysis of the deposited data

How the results depend on the processing

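Has3, Hyal1 and Ugdh kept their direction and passed the test in all 17 alternative fits. Has1 kept its direction, at -4.68 with the trend with abundance removed and from -6.31 to -4.94 leaving out each library. Hyal2 was not past the test with upper-quartile scaling (0.037), at least 1 CPM in 3 libraries (0.22) or protein-coding genes only (0.19), turned to -0.16 with library size only, and ran from 0.21 to 0.38 leaving out each library, not past the test without PA/OA replicate 1 or PP replicate 1. Cd44 was not past it with at least 1 CPM in 3 libraries (0.12) or protein-coding genes only (0.089), turned to -0.26 with library size only, -0.066 with upper-quartile scaling and -0.21 with the trend removed, and ran from 0.14 to 0.23 leaving out each library, not past the test without PA/OA replicate 1.

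Of the members other than Has1, 3 were called with upper-quartile scaling, at least 1 CPM or protein-coding genes only (2 higher in each), 2 higher and 2 lower with library size only, 2 lower with the trend removed, and 3 to 5 (2 to 4 higher) leaving out each library. The lower count of 3 came without PA/OA replicate 1. Genes higher in PP numbered 5510, and 3235 with library size only, where 8910 were lower and the median of all genes was -0.52 in place of -0.09. With upper-quartile scaling the split was 4241 and 7688, and the median -0.32. Counts called per list stayed within 1.5 times.

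Same-numbered libraries did not deviate together (r of 0.0052, 0.0030 and -0.0234 for numbers 1 to 3), so the numbers were not taken to pair the samples. With the replicate block, 5427 genes were higher and 6088 lower, and the fold changes were -3.17 for Has3, 2.19 for Hyal1, 0.27 for Hyal2, 0.17 for Cd44 and 1.62 for Ugdh, with no call changed. Depth limits Has1 and Has3 in PP, with 10 and 52 counts in all.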

Other observations

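Genes of sulfated glycosaminoglycan synthesis, a process that also draws on UDP-glucuronate, went both ways. Of 19 tested, 7 were higher, 9 lower and 3 not past the test, with a median log2 fold change of -0.16. The share called was 84.2%, beside 75% of all genes (35.1% higher, 39.9% lower), and scaled by library size only, 4 were higher and 13 lower. B3galt6, whose enzyme adds the second galactose of the linker to which these chains are attached, fell by 3.68 on the log2 scale, from 5.71 ± 0.667 to 0.439 ± 0.184 CPM (SD, n = 3). The transporter gene Slc35b4 fell by 2.05, from 47.2 ± 3.18 to 11.4 ± 2.17 CPM, and the chondroitin polymerisation genes Chpf and Chsy1 fell by 1.36 and 1.24. Uxs1, whose enzyme makes UDP-xylose from UDP-glucuronate, rose by 0.90, from 49.6 ± 1.90 to 92.6 ± 10.7 CPM, and Ext1, a heparan sulfate polymerase gene, by 0.73, while its partner Ext2 fell by 0.18. The fall of Ext2 was not past the test without PA/OA replicate 1, PP replicate 1 or PP replicate 2. Uxs1, Ext1 and Ext2 were named after their values were seen.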
